A study of Homo sapiens with 16 samples.

Results

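The C/EBP transcription factors were examined in RNA-seq of Jurkat and HSB-2 cells after knock-down of USP7, a deubiquitylating enzyme. The rows with the symbols CEBPA, CEBPB, CEBPD, CEBPE and CEBPG were taken from the deposited count table, which gave 5 members of 57820 genes. The family was chosen by the CEBPE counts, which were much lower in the Jurkat knock-down libraries than in the scrambled ones, so the Jurkat levels of CEBPE are given as a description and carry no test, and no member is tested between Jurkat knock-down cells and their controls. Jurkat and HSB-2 are established human cell lines of T-cell acute lymphoblastic leukemia (T-ALL), and the labels mark both as TAL1+. Each line gave 4 groups of 2 libraries: wild-type, transduced with a scrambled control, or carrying USP7 shRNA-4057 or USP7 shRNA-4058, short hairpin RNAs delivered by lentivirus against different exons of USP7. The sample labels call the scrambled control a siRNA, whereas the series' design calls it an shRNA scramble. Transduced cells were sorted for GFP or selected with puromycin per the study's methods, and which of these was used for each group is not given there. Nothing in the labels says whether the 2 libraries of a group came from separate cultures, so the p-values measure the spread between these libraries, which may be technical.

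C/EBP proteins are basic leucine zipper factors that bind DNA as dimers, with one another or with related factors such as ATF4. They are best known for steering myeloid cells: CEBPA commits progenitors to the granulocyte path, CEBPE drives the late steps of neutrophil and eosinophil maturation, and CEBPB and CEBPD respond to cytokines and inflammation. CEBPG lacks a conventional activation domain and acts largely as a dimer partner, and it is expressed in most cell types. Mature T cells are not known for CEBPE.

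The sequences just upstream of the start sites are shown for CEBPE, whose level varied most among the 8 groups, and for CEBPB, as a member with a GC-rich start. They hold the 250 bases before the RefSeq start, from RefSeq promoters of build GRCh38 that were placed on GRCh37, the build of the counts, by exact match. Capitals mark matches to the motifs searched on both strands: the E-box CANNTG, the GATA-factor motif GATA, the C/EBP motif TTNNGNAA, the CCAAT box and TGNGGT. The last is a loose form of the RUNX motif that allows any base at the third position.
CEBPE, chr14:23588465-23588714, minus strand: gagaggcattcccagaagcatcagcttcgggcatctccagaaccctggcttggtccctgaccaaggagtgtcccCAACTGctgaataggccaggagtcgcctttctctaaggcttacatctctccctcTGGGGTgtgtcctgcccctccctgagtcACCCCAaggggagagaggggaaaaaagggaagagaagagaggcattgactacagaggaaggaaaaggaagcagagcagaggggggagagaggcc
CEBPB, chr20:48807117-48807366, plus strand: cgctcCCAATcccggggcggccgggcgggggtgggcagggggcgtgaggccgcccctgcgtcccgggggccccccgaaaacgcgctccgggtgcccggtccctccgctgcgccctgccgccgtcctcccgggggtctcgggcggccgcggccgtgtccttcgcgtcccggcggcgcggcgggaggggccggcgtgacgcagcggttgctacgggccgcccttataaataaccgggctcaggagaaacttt

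The CEBPE window had a GC content of 57.2% and 2 CpG dinucleotides, and it lay within the annotated span of the gene but outside its exons, since longer transcripts start further upstream. Among 35116 RefSeq promoters of the same length the median was 58.0% GC and 11 CpG, and 22.9% of them had as few CpG as CEBPE or fewer. The windows of CEBPA, CEBPB and CEBPG had between 75.6% and 81.2% GC and between 25 and 41 CpG. Of these windows the CEBPE one alone held an E-box, CAACTG at -176 to -171 where -1 is the base before the start. It also held RUNX motifs at -122 to -117 and, on the opposite strand, at -94 to -89, and the other start of CEBPB held 1 RUNX motif. An E-box was found in 61.8% of all promoters and a match to TGNGGT in 37.7%. None of the windows of CEBPA, CEBPB, CEBPE and CEBPG held GATA (45.6% of promoters) or the C/EBP motif (33.2%). CCAAT (32.0%) was found in 1 start of CEBPB and 1 of CEBPG. No window of CEBPD was examined. A match describes the letters and is not evidence of binding.

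In GENCODE models on GRCh37, CEBPE (ENSG00000092067.5) lies on the minus strand of chromosome 14 from 23586245 to 23589465 with 4 exon blocks. CEBPA (chromosome 19, 33790840 to 33793440, minus strand) and CEBPB (chromosome 20, 48807367 to 48809205, plus strand) are single-exon genes, as is CEBPD on chromosome 8. CEBPG (chromosome 19, 33864591 to 33873592, plus strand) has 3 exon blocks. CEBPA is overlapped in antisense by 2 long noncoding RNAs, ENSG00000267580 and ENSG00000267727, over 659 and 482 exonic bases, and CEBPB by CEBPB-AS1 over 231. The library kit keeps strand, but the strand setting of the counting is not given in the sources used here, so reads from these partners could be in the CEBPA and CEBPB counts.

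Total counts ranged from 76602847 to 235467749 per library, and in Jurkat from 86892818 to 110265819. A count of 0 allowed at most 3 counts, which corresponded to between 0.0132 and 0.0444 CPM (a gene's counts relative to the total of its library, with TMM factors between libraries), and this floor covers counting error only. USP7 itself fell with both hairpins, by 0.97 on the log2 scale in Jurkat (SE 0.24, adjusted p 0.020) and by 0.55 in HSB-2 (SE 0.056, adjusted p 1.1e-04), by the quasi-likelihood (QL) F-test of edgeR after Benjamini-Hochberg correction, which also gives each later QL adjusted p. The T-lineage identity of the cells was visible in 12 marker genes, which summed to between 2699 and 4149 CPM, with 10 to 12 of them at 1 CPM or more in each group. Of 8 myeloid markers none reached 1 CPM in any group, and together they summed to at most 1.07 CPM, with ELANE at 0 counts in 6 of the 8 groups. In the Jurkat scrambled libraries the 10 most abundant genes took 14.9% and 17.0% of the counts, more than in the other libraries (8.16% to 12.1%).

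CEBPE, the driver of late granulocyte maturation, was expressed in these T-lineage cells and was highest in the scrambled cells of both lines. Its Jurkat levels were 42.6 and 45.8 CPM without transduction and 103 and 107 CPM in the scrambled libraries. With shRNA-4057 it was at 5.75 and 5.12 CPM and with shRNA-4058 at 9.12 and 10.96 CPM. All 4 knock-down libraries thus lay below both wild-type and both scrambled libraries, and the hairpins did not overlap. The lowest Jurkat library still held 527 counts of CEBPE, far above the floor. These values chose the family and carry no test. The fitted log2 fold change of USP7 shRNA against scrambled cells was -3.73 (SE 0.28), 13.3-fold lower, and 28% of all 21288 genes tested were called in that comparison. Called means a QL adjusted p under 0.05. For single hairpins it was -4.27 (SE 0.076) with shRNA-4057 and -3.39 (SE 0.071) with shRNA-4058, beside 50% and 46.5% of all genes called. Against wild-type cells the hairpins gave -3.02 and -2.14, beside 36.7% and 35.9%, and scrambled against wild-type cells gave 1.25 (SE 0.063).

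**Figure D1:**
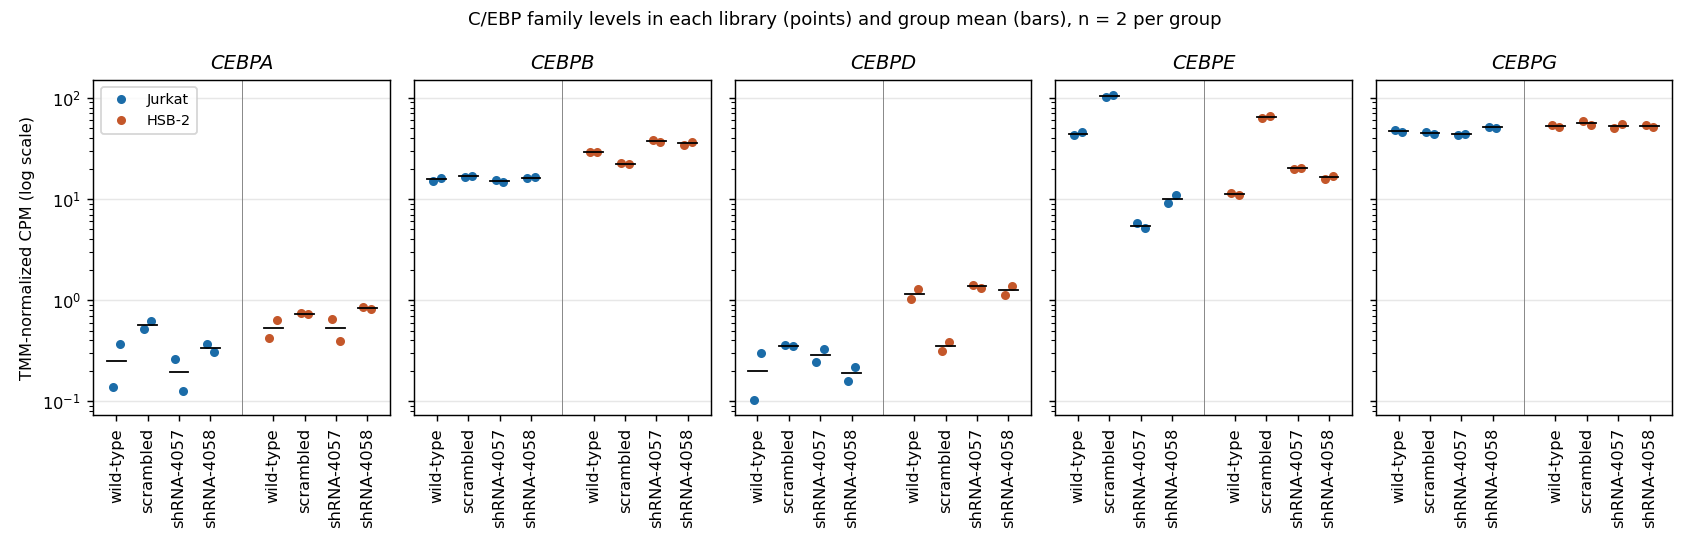
Level of each C/EBP gene in the 16 libraries as TMM-normalized CPM on a log axis, by group along the horizontal axis (Jurkat in blue, HSB-2 in orange). Points are libraries and bars are means of 2. CEBPE spans 5.12 to 107 CPM with scrambled cells highest in both lines, CEBPG stays between 42.9 and 58.8 CPM, and CEBPA and CEBPD are near or below 1 CPM.

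In HSB-2, whose libraries did not choose the family, the direction of the CEBPE change depended on the control. Wild-type HSB-2 cells had 11.4 and 11.01 CPM and scrambled cells 62.7 and 66.3 CPM. With shRNA-4057 CEBPE was at 19.8 and 20.5 CPM and with shRNA-4058 at 15.9 and 16.9 CPM. All 4 knock-down libraries therefore lay below both scrambled libraries and above both wild-type libraries. Against scrambled cells CEBPE fell by 1.82 on the log2 scale (SE 0.10, QL adjusted p 3.7e-06), 3.53-fold lower. Each hairpin was called alone, with -1.68 (SE 0.066, QL adjusted p 7.3e-16) for shRNA-4057 and -1.98 (SE 0.067, QL adjusted p 2.6e-17) for shRNA-4058. Against wild-type cells CEBPE rose instead, by 0.84 (QL adjusted p 1.7e-09) and 0.54 (QL adjusted p 1.0e-06) with these hairpins and by 0.70 with both hairpins pooled (QL adjusted p 0.0039). With scrambled and wild-type cells together as the control it was not called (-1.05, QL adjusted p 0.17).

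The difference between the controls was itself large. In HSB-2, scrambled cells held 5.75-fold more CEBPE than wild-type cells (log2 fold change 2.52, SE 0.068, QL adjusted p 2.1e-18), where 34.1% of 23063 genes were called. These comparisons share the scrambled libraries, so they are not independent of one another. T-lineage markers also differed between the HSB-2 groups: 11 of the 12 were called lower in scrambled than in wild-type cells (17.9% of all genes) and 10 of 12 higher with USP7 shRNA than in scrambled cells (20.3% of all genes). In Jurkat 6 of the 12 were called lower and 0 higher with USP7 shRNA than in scrambled cells, where 15.7% of all genes were called lower. The part of these markers in the CEBPE results was not tested. In bulk RNA, fewer cells of a type and less RNA per cell cannot be told apart.

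Set against each other, the hairpins left different amounts of CEBPE. In Jurkat the log2 difference of shRNA-4057 minus shRNA-4058 was -0.88, given without a test. In HSB-2 it had the opposite sign, 0.31 (SE 0.070, QL adjusted p 0.0019), and CEBPE was the one of 5 members called, beside 24.8% of all genes. Without shRNA-4058 replicate 1 this call was lost (0.26, QL adjusted p 0.0501). USP7 was lower with shRNA-4057 than with shRNA-4058 in both lines, at 143 against 243 CPM in Jurkat and 146 against 159 CPM in HSB-2.

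The order of the 8 groups by CEBPE ran from Jurkat scrambled (105 ± 2.55 CPM, SD, n = 2) through HSB-2 scrambled (64.5 ± 2.58), Jurkat wild-type (44.2 ± 2.26), HSB-2 shRNA-4057 (20.1 ± 0.447), HSB-2 shRNA-4058 (16.4 ± 0.711), HSB-2 wild-type (11.2 ± 0.255) and Jurkat shRNA-4058 (10.04 ± 1.30) to Jurkat shRNA-4057 (5.43 ± 0.446), and no neighbouring groups in this order overlapped. The highest mean was 19.3 times the lowest. Between the untreated lines, wild-type HSB-2 cells had 3.94-fold less CEBPE than wild-type Jurkat cells (log2 fold change -1.98, SE 0.068), given without a test since it rests on Jurkat levels.

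CEBPB, the cytokine-responsive member, varied within 2.47-fold over the groups and moved in HSB-2. Wild-type HSB-2 libraries held 29.1 and 29.2 CPM and scrambled ones 22.6 and 22.2 CPM. The shRNA-4057 libraries held 38.4 and 36.2 CPM and the shRNA-4058 libraries 34.4 and 36.7 CPM. The knock-down libraries lay above both controls, and scrambled cells were lowest. CEBPB rose against scrambled cells by 0.71 (SE 0.065, QL adjusted p 5.8e-05), 1.63-fold. It also rose against wild-type cells, by 0.32 with the hairpins together (QL adjusted p 0.0076). Wild-type Jurkat libraries held 15.2 and 16.1 CPM of CEBPB and scrambled ones 16.6 and 17.0 CPM, against 15.4 and 14.8 CPM for shRNA-4057 and 16.1 and 16.3 CPM for shRNA-4058. The 4 knock-down libraries were below both scrambled libraries but overlapped the wild-type ones, and the pooled log2 difference of -0.076 (SE 0.081) turned to 0.18 when libraries were scaled by their totals alone. Wild-type HSB-2 cells held 1.86-fold more CEBPB than wild-type Jurkat cells (log2 fold change 0.90, QL adjusted p 6.3e-13).

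CEBPD, an acute-phase and inflammatory factor, was scarce, with 12 to 34 counts per Jurkat library and 59 to 234 per HSB-2 library. Wild-type HSB-2 libraries held 1.02 and 1.28 CPM and scrambled ones 0.316 and 0.387 CPM. With shRNA-4057 it reached 1.41 and 1.32 CPM and with shRNA-4058 1.13 and 1.39 CPM. The scrambled libraries stood apart as low, and the knock-down libraries overlapped the wild-type range. CEBPD rose against scrambled cells by 1.90 (SE 0.22, QL adjusted p 2.0e-04), and scrambled cells were lower than wild-type cells by a log2 difference of -1.69 (SE 0.28, QL adjusted p 4.1e-05). Against wild-type cells the pooled difference was 0.19 and was not called (QL adjusted p 0.50). In Jurkat, CEBPD was between 0.103 and 0.358 CPM in every library, and its pooled log2 difference was -0.55 (SE 0.34) against scrambled and 0.30 against wild-type cells. Wild-type HSB-2 cells had 5.89-fold more CEBPD than wild-type Jurkat cells (log2 fold change 2.56, QL adjusted p 3.0e-07).

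CEBPA, the granulocyte commitment factor, was the other scarce member, with 13 to 59 counts per Jurkat library and 41 to 176 per HSB-2 library. Wild-type Jurkat libraries held 0.137 and 0.367 CPM and scrambled ones 0.521 and 0.624 CPM, against 0.264 and 0.126 CPM for shRNA-4057 and 0.371 and 0.305 CPM for shRNA-4058. The scrambled libraries were the highest of the line, and the knock-down libraries overlapped the wild-type ones. Scrambled cells held more CEBPA than wild-type cells (log2 fold change 1.24, SE 0.39, QL adjusted p 0.023), the 1 call among the 4 other members in a comparison where 25.9% of all genes were called. That call was lost without wild-type replicate 1 (0.64, QL adjusted p 0.35) and without scrambled replicate 2 (1.09, QL adjusted p 0.12). In HSB-2 CEBPA lay between 0.396 and 0.846 CPM and was not called with USP7 shRNA (-0.11, 95% interval -0.69 to 0.46, QL adjusted p 0.79). Changes within that interval were not excluded. The single hairpins gave -0.50 with shRNA-4057 and 0.18 with shRNA-4058, and neither was called.

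CEBPG, the widely expressed dimer partner, was the steadiest member. Its Jurkat levels ran from 42.9 to 51.9 CPM and its HSB-2 levels from 49.8 to 58.8 CPM, and the highest group mean was 1.29 times the lowest. The knock-down libraries overlapped the scrambled libraries in both lines. In HSB-2 its log2 difference with USP7 shRNA was -0.093 (95% interval -0.21 to 0.029, QL adjusted p 0.27), and it was called lower when libraries were scaled by total counts alone (-0.24, QL adjusted p 0.021). In Jurkat, shRNA-4057 left less CEBPG than shRNA-4058 (-0.24, SE 0.053, QL adjusted p 0.0010), the 1 call among the 4 members other than CEBPE, where 33.9% of all genes were called. The Jurkat hairpins lay to either side of scrambled cells, at 43.5 ± 0.947 and 51.3 ± 0.818 CPM against 45.1 ± 1.07 CPM (SD, n = 2).

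**Figure D2:**
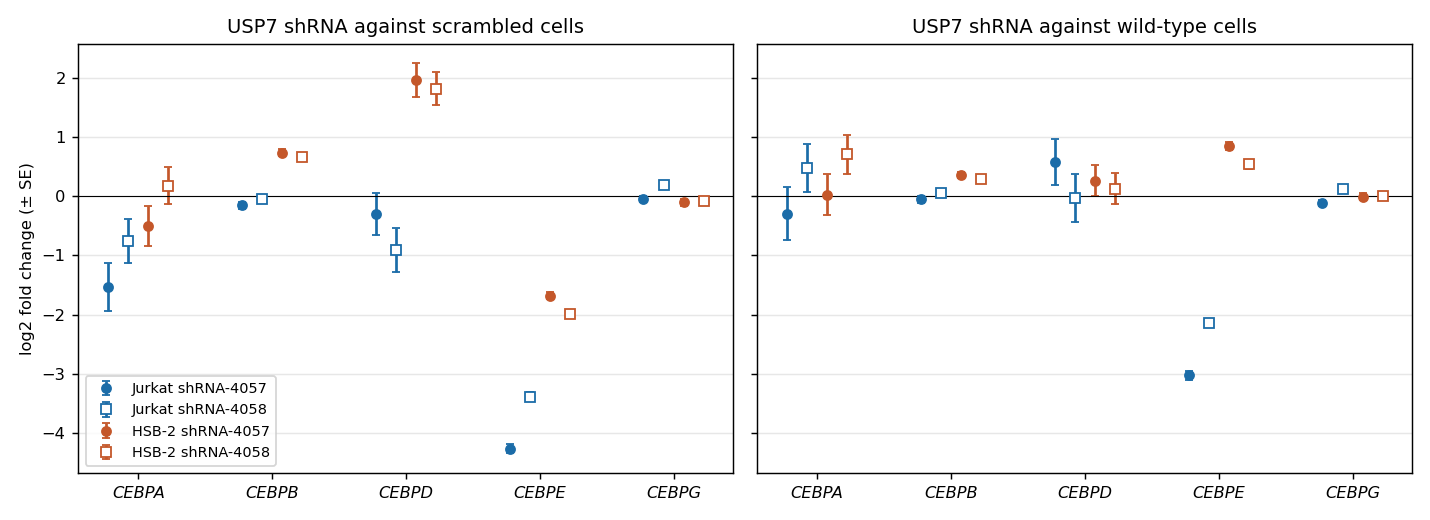
Log2 fold change with its SE for each member and hairpin (circles shRNA-4057, squares shRNA-4058, Jurkat blue, HSB-2 orange), against scrambled cells on the left and wild-type cells on the right. In HSB-2 the CEBPE points sit at -1.68 and -1.98 on the left and at 0.84 and 0.54 on the right, while the Jurkat points stay below 0 in both panels.

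Counted over the family, 3 of 5 members (CEBPE, CEBPB and CEBPD) were called with USP7 shRNA against scrambled cells in HSB-2, where 38.1% of 21113 genes were called. With single hairpins the same 3 were called, beside 43.6% of genes with shRNA-4057 and 52.8% with shRNA-4058. These 3 were also called between scrambled and wild-type cells, where 34.1% of genes were. Against wild-type cells 2 of 5, CEBPE and CEBPB, were called with each hairpin, beside 31.7% of genes with shRNA-4057 and 44% with shRNA-4058. The 4 members other than CEBPE were all called between the wild-type lines, beside 68.1% of all genes, of which CEBPA (log2 fold change 1.07, QL adjusted p 0.018) lost its call without wild-type Jurkat replicate 1 or HSB-2 replicate 2, and CEBPG (0.15, QL adjusted p 0.013) lost its call without wild-type Jurkat replicate 2 or HSB-2 replicate 1 or with scaling by total counts. With 5 members, counts of this size are a description and are not set apart from the share of all genes.

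To compare levels between members, CPM was divided by exonic length. On this per-length scale the family summed to 45.5 CPM per kb in wild-type Jurkat and 80.2 in scrambled Jurkat cells, and to 22.3 and 27.4 with shRNA-4057 and shRNA-4058. CEBPE made up 55.1% ± 1.16 of the family (SD, n = 2) in wild-type and 74.1% ± 0.525 in scrambled Jurkat cells. It made up 13.8% ± 0.980 with shRNA-4057 and 20.7% ± 2.20 with shRNA-4058, where CEBPG was the largest part at 48.1% ± 1.57 and 46.1% ± 1.81. In HSB-2 CEBPB was the largest part in wild-type cells (43.7% ± 0.442) and with both hairpins (44.2% ± 1.99 and 45.0% ± 0.944), and CEBPE was the largest in scrambled cells (57.9% ± 1.87). CEBPE was 17.5% ± 0.267 of the family in wild-type HSB-2, 24.9% ± 0.470 with shRNA-4057 and 21.6% ± 0.383 with shRNA-4058. CEBPA and CEBPD together stayed a small part in all groups, each at most 2.53%.

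**Figure D3:**
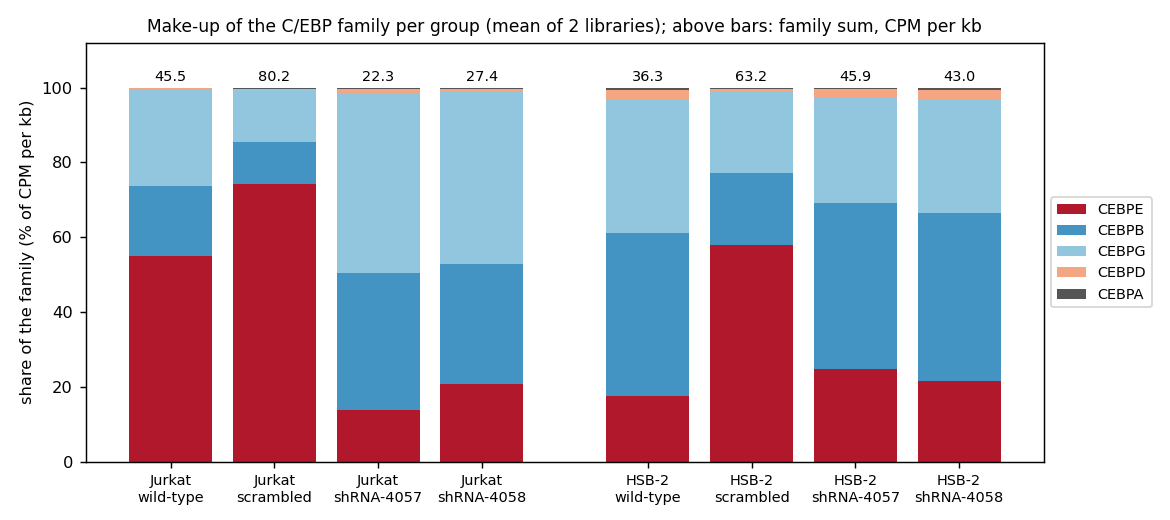
Share of each member in the summed C/EBP level per group, in percent of CPM per kb of exonic length (means of 2 libraries), with the family sum written above each bar. CEBPE is the largest part in both scrambled groups and in wild-type Jurkat, CEBPG in the Jurkat hairpin groups and CEBPB in the other HSB-2 groups.

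The genes next to CEBPE were read as well, to see whether CEBPE moved alone. On one side SLC7A8, an amino acid transporter gene, lies 5039 bases away on the same strand (chr14:23594504-23652883). Wild-type Jurkat libraries held 3.54 and 3.49 CPM of SLC7A8 and scrambled ones 5.82 and 6.28 CPM, against 1.72 and 1.71 CPM for shRNA-4057 and 3.005 and 3.42 CPM for shRNA-4058. In HSB-2 it was at 5.63 and 4.92, 21.4 and 21.9, 9.85 and 8.94, and 7.03 and 6.31 CPM in the same order. As for CEBPE, the scrambled libraries were highest in both lines. SLC7A8 fell with USP7 shRNA against scrambled cells by 1.27 in Jurkat (SE 0.29, QL adjusted p 0.016) and by 1.43 in HSB-2 (SE 0.16, QL adjusted p 1.5e-04). The Jurkat call was lost without scrambled replicate 1 or 2 (QL adjusted p 0.085 and 0.12). On the other side, C14orf119 (16580 bases away, plus strand) fell by 1.09 (SE 0.12, QL adjusted p 8.4e-04) and 0.92 (SE 0.057, QL adjusted p 6.6e-06), from 63.3 to 25.9 and 32.4 CPM in Jurkat and from 61.6 to 32.1 and 32.8 CPM in HSB-2. With the hairpins pooled against wild-type cells SLC7A8 was not called lower in either line (-0.48, QL adjusted p 0.35 in Jurkat and 0.60, QL adjusted p 0.045 in HSB-2). C14orf119 was called lower there in Jurkat alone (-0.57, QL adjusted p 0.029, against -0.11, QL adjusted p 0.20 in HSB-2). With single hairpins SLC7A8 was called lower than in wild-type Jurkat cells with shRNA-4057 (-1.04, QL adjusted p 1.2e-07) and not with shRNA-4058 (-0.13, QL adjusted p 0.35).

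Within 250000 bases of CEBPE, 16 protein-coding genes were tested. With USP7 shRNA against scrambled cells 7 of them were called lower and 0 higher in Jurkat, beside 15.7% of all genes called lower, and 9 lower and 1 higher in HSB-2, beside 17.8%. SLC7A8, C14orf119, CDH24 and PPP1R3E, the latter pair named after their values were seen, made up the 4 called lower in both lines, beside 1.87% of 19342 genes tested in both. In scrambled against wild-type cells 10 of the 16 were called higher and 0 lower in Jurkat, beside 14.8% and 11% of all genes, and 10 higher and 1 lower in HSB-2, beside 16.1% and 17.9%. Against wild-type cells 2 of the 16 were called higher and 8 lower with shRNA-4057 in Jurkat, beside 36.7% of all genes called in either direction. With shRNA-4058 2 were called higher and 10 lower there, beside 35.9%. In HSB-2 that comparison gave 6 higher and 4 lower with shRNA-4057, beside 31.7% of all genes called in either direction. With shRNA-4058 it gave 7 higher and 4 lower, beside 44%. With the hairpins pooled against wild-type Jurkat cells CDH24 and PPP1R3E lost their calls (QL adjusted p 0.13 and 0.15), and in HSB-2 CDH24 lost its call (QL adjusted p 0.50). Single hairpins were called lower than wild-type Jurkat cells for both genes. CDH24 gave -0.26 with shRNA-4057 (QL adjusted p 0.0023) and -0.68 with shRNA-4058 (QL adjusted p 9.1e-09). PPP1R3E gave -0.17 (QL adjusted p 0.014) and -0.44 (QL adjusted p 7.3e-07) in the same order. The comparisons with scrambled cells share those libraries. Neighbouring genes are not independent of each other. In HSB-2, which did not choose CEBPE, the log2 fold change against scrambled cells was -1.82 for CEBPE and -1.43 for SLC7A8, and their difference was not tested.

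**Figure D4:**
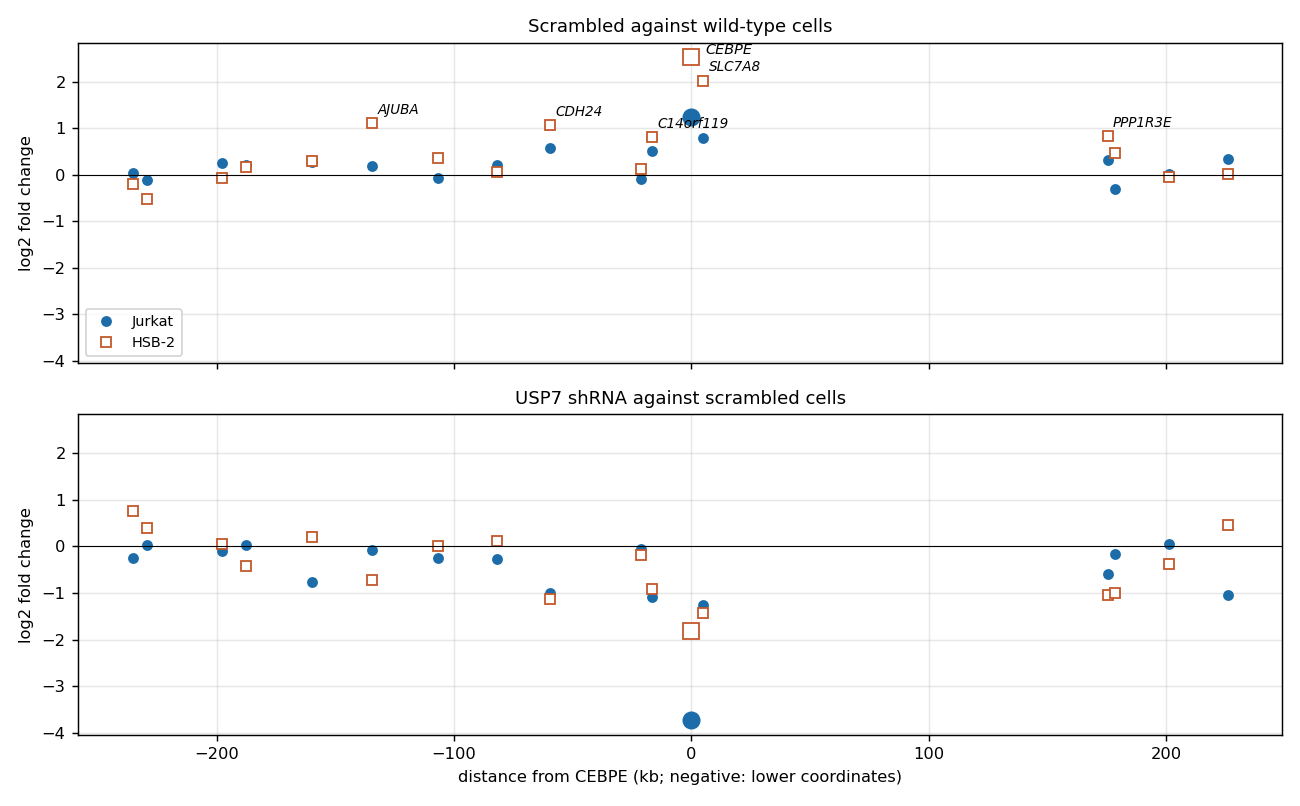
Log2 fold change of CEBPE (large symbols at 0) and of 16 protein-coding neighbours by distance from CEBPE in kb, for scrambled against wild-type cells (top) and USP7 shRNA against scrambled cells (bottom), Jurkat as filled circles and HSB-2 as open squares. SLC7A8 and C14orf119, the nearest named on each side, lie above 0 in the top panel and below 0 in the bottom panel in both lines.

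The genes with the pattern most like each member over the 8 groups were ranked by the root-mean-square difference of their centred log2 levels, among 14044 to 14045 genes whose mean over the groups reached 1 CPM. For CEBPE these were TEX19 (0.78), IGLL1 (0.81), TENT5C (0.84), DAB2 (0.84) and HAL (0.87), all far from a match, since the spread of CEBPE around its own mean was 1.36. IGLL1, which encodes a chain of the pre-B-cell receptor, went from 139 CPM in scrambled to 7.33 and 17.9 CPM in knock-down Jurkat cells, but was at 18.2, 18.5 and 25.9 CPM in the same HSB-2 groups. HAL, the histidine-degrading enzyme, was at 5.06 ± 0.334 CPM in scrambled and between 0.393 and 0.720 CPM in the other Jurkat groups, and at 1.11 ± 0.0257 CPM in scrambled and between 0.224 and 0.390 CPM in the other HSB-2 groups. C14orf119, the neighbour above, ranked 8 of 14044. The other members had closer matches, OXNAD1 (0.059) and DLG1 (0.089) for CEBPB, TFR2 (0.19) and IER2 (0.20) for CEBPD, B3GNT4 (0.18) and ENO1 (0.19) for CEBPA, and IREB2 (0.035) and the pseudogene RP11-592B15.4 (0.036) for CEBPG. Likeness over 8 groups is a description of these libraries.

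Genes that work with or control C/EBP proteins were taken from a list of 26 partners and regulators. In Jurkat 3 of the 23 tested were called higher and 5 lower with USP7 shRNA against scrambled cells, with a median log2 fold change of 0.14 beside 0.020 for all genes. In HSB-2 11 of 25 were called higher and 5 lower, with a median of 0.18 beside -0.018. The shares of all genes called higher and lower were 12.4% and 15.7% in Jurkat and 20.3% and 17.8% in HSB-2.

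TRIB2, a pseudokinase that directs C/EBP alpha to degradation together with the ubiquitin ligase COP1, rose in both lines and against both controls. Wild-type Jurkat cells had a mean TRIB2 level of 151 ± 0.538 CPM and scrambled ones 103 ± 0.274 CPM, against 387 ± 2.31 CPM for shRNA-4057 and 359 ± 1.57 CPM for shRNA-4058 (SD, n = 2). In HSB-2 it was 274 ± 9.39, 180 ± 0.520, 466 ± 6.87 and 661 ± 3.73 CPM in the same order, and the knock-down libraries were above both controls in each line. The log2 fold change against scrambled cells was 1.89 in Jurkat (SE 0.065, QL adjusted p 6.0e-05) and 1.65 in HSB-2 (SE 0.16, QL adjusted p 8.6e-05), and against wild-type cells 1.33 (QL adjusted p 7.3e-04) and 1.04 (QL adjusted p 0.0029). COP1 itself was not called in either line (0.15, QL adjusted p 0.195, and 0.032, QL adjusted p 0.75).

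Among leucine zipper partners, FOS, an AP-1 subunit, was called higher in both lines, by 1.15 in Jurkat (QL adjusted p 0.025) and by 3.66 in HSB-2 (QL adjusted p 9.1e-08), and JUN, its dimer partner, rose by 1.72 in HSB-2 (QL adjusted p 1.4e-05). In HSB-2 the controls differed too: wild-type cells had 59.1 CPM of FOS and scrambled ones 7.90 CPM, against 92.1 and 108 CPM for the hairpins. DDIT3, which encodes CHOP, a C/EBP partner in stress responses, went from 12.9 CPM in wild-type to 4.97 CPM in the scrambled group, against 14.6 and 12.7 CPM for the hairpins. Both were called lower in scrambled than in wild-type HSB-2 cells (-2.90, QL adjusted p 7.3e-20, and -1.38, QL adjusted p 3.2e-12). GFI1B, a transcriptional repressor active in the erythroid and megakaryocyte lineages, was also called lower there (-1.87, QL adjusted p 2.9e-07). Against wild-type cells FOS was still called higher in HSB-2 (0.75, QL adjusted p 6.7e-04) and DDIT3 was not (0.080, QL adjusted p 0.58). JUN was at 130 CPM in wild-type and 52.3 CPM in scrambled HSB-2 cells, against 151 and 193 CPM for the hairpins. Its rise against wild-type cells was smaller, 0.39 (QL adjusted p 0.037). With both controls together FOS lost its call (1.58, QL adjusted p 0.080). ATF5 was called higher in Jurkat (0.66, QL adjusted p 0.016) and ATF3 lower (-0.82, QL adjusted p 0.0018), and against wild-type cells the ATF5 call was lost (0.46, QL adjusted p 0.099).

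Among regulators of blood lineages, GFI1, a repressor needed for neutrophil maturation, was called lower in Jurkat (-0.80, QL adjusted p 2.8e-04) and higher in HSB-2 (0.38, QL adjusted p 9.6e-04), and whether the lines differed was not tested. MYB, a progenitor factor, fell in Jurkat (-0.70, QL adjusted p 0.0093) and in HSB-2 (-0.23, QL adjusted p 0.026). RUNX1 fell in both lines too (-0.35, QL adjusted p 0.0075, and -0.50, QL adjusted p 0.0025), and MYC and CEBPZ fell in HSB-2 (-0.50, QL adjusted p 0.0026, and -0.58, QL adjusted p 1.0e-04). Against wild-type cells the calls of MYB in Jurkat (-0.47, QL adjusted p 0.083) and MYC in HSB-2 (-0.28, QL adjusted p 0.053) were lost. CEBPZ carries a C/EBP name but is no leucine zipper member. RUNX1 was at 356 CPM in scrambled HSB-2 cells and between 229 and 274 CPM in the other HSB-2 groups, and against wild-type cells it was not called (-0.020, QL adjusted p 0.90). SPI1, which encodes the myeloid factor PU.1, had at most 26 counts in any HSB-2 library, 26 and 20 of them in the scrambled libraries and 0 to 6 in the others, and at most 5 in any Jurkat library.

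**Figure D5:**
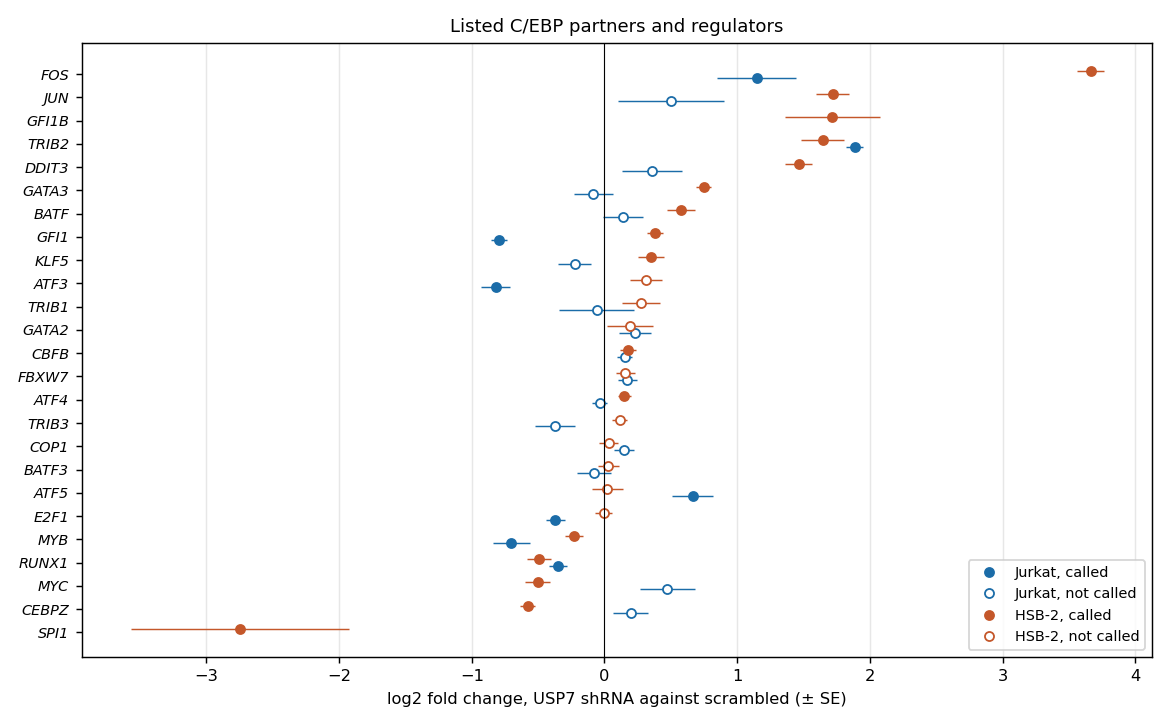
Log2 fold change with SE of the listed C/EBP partners and regulators with USP7 shRNA against scrambled cells, Jurkat in blue and HSB-2 in orange, filled where called. TRIB2 lies at 1.89 and 1.65 and FOS at 1.15 and 3.66, called in both lines, and SPI1, tested in HSB-2 alone, rests on at most 26 counts per library.

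Neutrophil granule genes, some of which CEBPE is known to switch on in maturing neutrophils, were mostly silent. Of 32 listed granule genes 4 reached 1 CPM in any group (CTSG, MMP9, CYBB and CYBA), and 7 (CAMP, CRISP3, DEFA1, DEFA3, DEFA4, S100A8 and S100A12) had 0 counts in all 16 libraries. The filter on low counts left 10 of the 32 to test in each line, of which 1 was called higher and 2 lower in Jurkat and 3 higher and 3 lower in HSB-2. Of all genes 12.4% were called higher and 15.7% lower in Jurkat, and 20.3% and 17.8% in HSB-2. CTSG, a neutrophil protease gene, was at 27.0 to 33.6 CPM in the Jurkat groups and was not called there (0.029, QL adjusted p 0.86), and in HSB-2 it fell from 1.94 CPM in scrambled cells to 1.23 and 1.24 CPM (-0.65, QL adjusted p 0.0086), a call lost without scrambled replicate 1 or 2 (QL adjusted p 0.058 and 0.095). CYBA, a subunit of the phagocyte oxidase also made elsewhere, was called lower in Jurkat (-0.36, QL adjusted p 0.017) and higher in HSB-2 (0.34, QL adjusted p 0.028), and neither call was kept against wild-type cells. CYBB, the other subunit of that oxidase, had 1481 and 1394 counts in the scrambled HSB-2 libraries, 211 and 93 in the wild-type ones and 1 to 6 in the 4 knock-down libraries, and was called lower against scrambled and against wild-type cells (QL adjusted p 4.2e-07 and 3.0e-04). In Jurkat CYBB had at most 4 counts in a library, at or near the floor.

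Of 17 myeloid cytokine receptors and surface genes, 5 reached 1 CPM in a group. With USP7 shRNA against scrambled cells 1 of 10 tested was called higher and 2 lower in Jurkat, and 2 of 9 higher and 2 lower in HSB-2, beside the same shares of all genes (12.4% and 15.7%, and 20.3% and 17.8%). KIT, the stem cell factor receptor, fell in Jurkat from 23.6 CPM in scrambled cells to 3.38 and 9.98 CPM (wild-type 13.8 CPM; -1.79, SE 0.45, QL adjusted p 0.024), and IL6R rose from 0.0372 to 1.22 and 0.795 CPM (QL adjusted p 0.0010). In HSB-2 IL6ST, the shared receptor of the IL-6 family, was at 32.4 CPM in scrambled cells and between 19.6 and 21.6 CPM in the others (-0.63, QL adjusted p 1.5e-04), and ITGAX rose from 0.0609 to 0.480 and 1.31 CPM (QL adjusted p 0.0012). KIT, IL6ST and ITGAX were not called against wild-type cells (QL adjusted p 0.21, 0.39 and 0.17). B-lineage markers were tested as well, and of the 4 tested in Jurkat with USP7 shRNA against scrambled cells CD79A was called lower (-1.49, QL adjusted p 6.0e-05), MS4A1 higher (QL adjusted p 0.049) and 2 neither way. MS4A1 was at most at 0.319 CPM in a Jurkat group. For CD79A, wild-type cells had 35.5 ± 0.465 CPM of CD79A and scrambled ones 62.7 ± 2.23 CPM, against 21.5 ± 0.0282 and 22.4 ± 0.403 CPM for the hairpins (SD, n = 2), and of the 6 B-lineage markers it was the 1 at 1 CPM or more in Jurkat. Unlike in Jurkat, 2 of the 2 B-lineage markers tested in HSB-2 were called higher with USP7 shRNA, beside 20.3% of all genes. Group means of CD79A there were 0.522 CPM (scrambled), 1.15 CPM (shRNA-4057), 0.947 CPM (shRNA-4058) and 1.37 CPM (wild-type). The part of CD79A in the CEBPE result was not tested.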

How the data were processed

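RNA-seq was performed on total RNA after ribosomal depletion, with a stranded kit. The authors mapped read pairs by BWA with an in-house pipeline to GRCh37-lite and transcript collections, and deposited raw read counts per gene (HTSeq 0.6.1p1; STAR and CASAVA are also in the submitters' processing notes, whose build is hg19). The strand setting and annotation release are not given in the sources used here. Replicates were not pooled. Mitochondrial genes were listed at 0.

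Symbols were those of the table, and loci, overlaps and lengths came from GENCODE v44lift37, found for 55538 of 57820 genes. The members and gene lists were chosen with earlier results of these data known.

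Counts were analysed with edgeR 4.0.16 in R 4.3.3 (filterByExpr, TMM, quasi-likelihood F-test, Benjamini-Hochberg adjustment over all genes tested). SEs were derived from the fold change and its F statistic. For each line, 4 USP7 shRNA libraries were pooled against 2 scrambled libraries, as in the study. Single hairpins, controls and lines were compared in a fit of all 16 libraries as 8 groups. From each list, up to 3 called genes per direction with the largest change and a group mean of at least 1 CPM were named, with any gene singled out for its absence, the nearest tested protein-coding gene on each side of CEBPE, and the 5 genes most like CEBPE or 2 most like another member. Centred levels for likeness were log2(CPM + 0.1).

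Replicate pairs differed by more than sampling noise (chi-square per degree of freedom 5.12 to 18.4), so each library counted as 1. On simulated HSB-2 counts, 100 genes were changed by a log2 size of 1 and 100 by 2. All were called with the right sign in the pooled comparison, with 11 of 20381 unchanged genes called. Every gene was drawn with 1 common dispersion and both hairpins with the same mean, and the changed genes were at 1 CPM or more. The simulation therefore does not cover genes that vary more, differ between hairpins or lie below 1 CPM. Log2 sizes below 1, such as the 0.71 of CEBPB in HSB-2, were not tried. The members' own calls were not tested in this way. Alternatives were DESeq2 1.42.0, RLE factors, no filter, the replicate block, other controls, hairpins as separate groups, each library left out and, chosen after seeing the data, total-count scaling and single hairpins against wild-type cells.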

Additional observations from a re-analysis of the deposited data

Results flagged for a closer look

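With USP7 shRNA against scrambled cells, the values of CEBPB and CEBPD had opposite signs in the lines. For CEBPB all 4 knock-down libraries lay below both scrambled libraries in Jurkat (log2 fold change -0.076) and above both in HSB-2 (0.71). For CEBPD the same held, with -0.55 in Jurkat and 1.90 in HSB-2. The Jurkat values, from the hairpins pooled, had SEs of 0.081 for CEBPB and 0.34 for CEBPD and were not tested. The difference between the lines was not tested. Against wild-type cells the Jurkat libraries of both genes overlapped the control and the values were 0.031 and 0.30. With libraries scaled by total counts alone the Jurkat value against scrambled cells was 0.18 for CEBPB and -0.30 for CEBPD. In none of the 10 sets of 4 knock-down libraries (5 members in 2 lines) did a library stand apart from the others by Dixon's criterion. Each set holds 2 libraries of each hairpin, so a difference between the hairpins widens the set and can hide such a library.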

How the results depend on the processing

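Among all genes, 5965 were called in the pooled Jurkat comparison and 8049 in HSB-2. Wild-type in place of scrambled cells gave 1798 and 5010, hairpins as separate groups 11837 and 12077, and leaving out one library between 1434 and 5792 in Jurkat and between 3801 and 8454 in HSB-2, with the lowest values without a scrambled library. Between the HSB-2 hairpins 5716 genes were called and 3713 to 4478 with a library left out. DESeq2, RLE factors, total-count scaling and no filter kept these counts within 1.5 times.

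Of the members' values tested, 10 changed sign. In HSB-2 with USP7 shRNA, CEBPE turned to 0.70 against wild-type cells, and CEBPA, which was not called, to 0.39 there, to 0.11 with both controls together and to 0.095 without shRNA-4057 replicate 2 (-0.26 to 0.095 with a library left out). CEBPG, not called, turned to 0.012 with shRNA-4058 (without its replicate 2; range -0.15 to 0.012) and, between the hairpins, to 0.027 with total counts, to 0.048 without shRNA-4057 replicate 1 and to 0.013 without shRNA-4058 replicate 1 (range -0.094 to 0.048), where CEBPD gave -0.026 (range -0.026 to 0.23). In scrambled against wild-type Jurkat cells CEBPD was called without wild-type replicate 2 (1.77) and CEBPG with total counts (-0.23), and CEBPG against scrambled HSB-2 cells was called with total counts for each hairpin (-0.22 and -0.25). Without scrambled HSB-2 replicate 2, CEBPG was called with shRNA-4057 (-0.17), with shRNA-4058 (-0.15) and between the controls (0.16), and it was called with shRNA-4057 without its replicate 2 (-0.18). CEBPB in scrambled against wild-type Jurkat cells gave -0.056 with total counts. Among the other named genes, CYBA in Jurkat turned to 0.079 and GFI1B, IL6ST and SLC7A8 in HSB-2 to -0.16, 0.087 and 0.60 against wild-type cells. TRIB2 kept its call in all 15 fits of each line (log2 1.33 to 2.14 in Jurkat, 1.04 to 1.75 in HSB-2). In Jurkat, USP7, FOS, ATF5, MYB, KIT, SLC7A8, PPP1R3E and CYBA lost their calls without either scrambled library (adjusted p 0.060 to 0.17 by the quasi-likelihood test), where 1 control was assumed to vary like the rest. The cause of these changes was not tested, beyond the smaller number of libraries.

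With scaling by total counts the median log2 fold change of all genes was 0.27 in Jurkat and -0.16 in HSB-2. With TMM factors these medians were 0.020 and -0.018. Total counts gave -0.16 between the Jurkat controls and -0.13 between the wild-type lines, where TMM factors gave -0.0042 in each. The replicate numbers did not pair the libraries: same-numbered deviations correlated from -0.53 to 0.48 in Jurkat and from -0.44 to 0.28 in HSB-2. The deviations were still not independent. Those of Jurkat wild-type, scrambled and shRNA-4058 cells correlated with each other at 0.43 to 0.48 and with shRNA-4057 at -0.53 to -0.37. A block by replicate number cannot take up differences of mixed sign, and their source was not tested. The replicate block gave 4156 calls for Jurkat and 6691 for HSB-2, and no member's call changed. CEBPA and CEBPD, with as few as 12 counts in a library, are limited by depth.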
